A study of Mus musculus musculus x M. m. domesticus and Mus musculus domesticus and Mus musculus with 12 samples.

Results

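The sterile hybrid *MxD* was compared with the fertile within-species cross *MxM*, using the 3 *MxD* and 3 *MxM* arrays of a series of 12 and all 7000 genes of its expression table. The 6 arrays were chosen by the cross and fertility that their labels state. No measured value entered that choice, but earlier results of these data were known. *MxD* males were F1 sons of a PWK/PhJ mother and a LEWES/EiJ father, PWK/PhJ being an inbred strain of *M. musculus* and LEWES/EiJ of *M. domesticus*. *MxM* males were F1 sons of a PWK/PhJ mother and a CZECHII/EiJ father, both strains being *M. musculus*. RNA came from whole testis at 60 days of age, 1 array per male. The remaining 6 males were the fertile crosses *DxD* (LEWES/EiJ mother, WSB/EiJ father) and *DxM* (LEWES/EiJ mother, PWK/PhJ father), and their levels are given as a description. No male carried an engineered allele or received a treatment.

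Since both genotypes had a PWK/PhJ mother, their males carried the same X chromosome, the same mitochondria and the same maternal set of autosomes. They differed in the paternal autosomes and in the Y chromosome. The *MxM* males are not parents of the *MxD* males, and each side of a cross is a single strain, so what belongs to the sterile phenotype and what belongs to the LEWES/EiJ or CZECHII/EiJ genome cannot be told apart in this contrast. The labels do not say whether males of a genotype came from separate litters, so p-values measure the spread between these males.

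In the adult testis, spermatogonia divide by mitosis, spermatocytes carry out meiosis, and round spermatids mature into sperm, supported by Sertoli cells and by Leydig cells that make testosterone. The X chromosome is silenced in male meiosis, and many of its genes remain repressed in spermatids, where a set of testis genes is expressed again. Reduced spermatogenesis is a frequent defect of hybrid males between these mice. In whole testis, fewer cells of a type and less RNA per cell cannot be told apart.

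Values are log2 expression levels, quantile normalized over the 12 arrays, so that every array had the same median of 8.14, lowest value of 3.08 and highest value of 13.26. Genes were tested with limma on the 6 arrays, and a gene is called where its p, adjusted over all 7000 genes by the Benjamini-Hochberg method, is under 0.05. A difference is always *MxD* minus *MxM*. Among *MxM* males, replicate 3 stood apart. In its array the level of 131 genes was lower than in each other male by 1 log2 unit or more, against 0 to 4 genes in any other array, and its correlation over genes with the other *MxM* arrays was 0.948 and 0.969, against 0.987 between those. The median SD of a gene was 0.15 in *MxM* and 0.12 in *MxD*, and 4276 genes varied more among *MxM* than among *MxD* males. Of the 131 genes, 4 were called. The tissue label could be checked only through the few genes with a name. *Cyp17a1*, a steroid-making enzyme of Leydig cells, measured 9.54 to 11.29 in the 6 males, and *Tsga8*, expressed in haploid male germ cells, measured 11.94 to 12.47.

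Sterile and fertile testis differed at many genes, mostly by less than 1 log2 unit and in both directions. Of 7000 genes, 1048 or 15.0% were called, 416 of them (5.94%) higher and 632 (9.03%) lower in *MxD*. The median difference was 0.57 among genes called higher and -0.55 among genes called lower, and the smallest difference called was 0.30 in size. Only 96 called genes differed by 1 log2 unit or more, 53 of them higher and 43 lower in *MxD*. A further 575 differed by 0.5 to 1, with 224 higher and 351 lower. Over all genes the difference had a median of -0.0091, and 48.9% of genes had the higher mean in *MxD*. The 3 males of each genotype did not overlap in 1161 genes (16.6%) that were higher and 1493 genes (21.3%) that were lower in *MxD*. The share of genes called was 17.2% among the 1750 genes with the lowest mean level and 12% among the 1750 with the highest.

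With the replicate number of the males as a block, limma called 1836 genes (26.2%), of which 804 (11.5%) were higher and 1032 (14.7%) lower in *MxD*. These included 1042 of the 1048. Without *MxM* replicate 3 the count was 1164 (16.6%), with 572 higher and 592 lower, and 882 of the 1048 genes were among them. Leaving out another male lowered the count, to 886 without *MxM* replicate 1, 260 without *MxM* replicate 2, 523 without *MxD* replicate 1, 369 without *MxD* replicate 2 and 243 without *MxD* replicate 3. The genes called lower outnumbered those called higher in each of these fits.

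**Figure D1:**
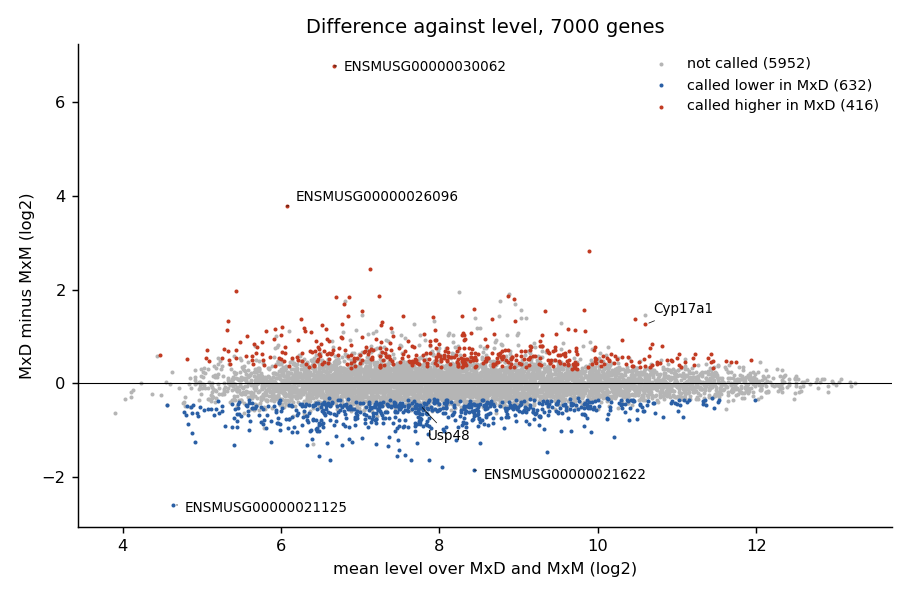
Each point is 1 of 7000 genes, with its mean log2 level over the 6 males on the x axis and the log2 difference *MxD* minus *MxM* on the y axis. The 416 genes called higher (red) and the 632 called lower (blue) lie at all levels, and most differ by less than 1 log2 unit.

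The largest differences were mostly those of genes whose *MxM* level lay away from every other genotype. By the crosses, *MxM* was the only genotype without *M. domesticus* autosomes. A difference between the species and a trait of these *MxM* males therefore cannot be told apart here. The array was designed from a laboratory mouse genome of largely *M. domesticus* origin, and probe mismatch in *M. musculus* was not tested. The deposited table gives Ensembl identifiers without gene names, so the genes with the largest differences are given by identifier. ENSMUSG00000030062 measured 9.95, 10.13 and 10.09 in the *MxD* males and 3.08, 3.08 and 3.72 in the *MxM* males. The groups were far apart, and the difference was 6.76 (standard error 0.18, adjusted p = 7.6e-06). The lowest value of an array is held by 1 gene and is made the same in every array by quantile normalization. Because 2 of the *MxM* values were the lowest of their arrays, the size of the difference depends in part on that shared value. *DxD* and *DxM* measured 10.45 and 9.88, near the *MxD* level.

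ENSMUSG00000026096, a gene of chromosome 1 in the meiotic class described below, measured 7.79, 8.05 and 8.03 in *MxD* and 4.53, 3.72 and 4.29 in *MxM*. The difference was 3.78 (standard error 0.20, adjusted p = 0.00050), and *DxD* and *DxM* measured 8.93 and 7.97, again on the side of *MxD*.

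In the other direction, ENSMUSG00000021622 measured 7.57, 7.68 and 7.31 in *MxD* and 9.14, 9.49 and 9.46 in *MxM*, a difference of -1.85 (standard error 0.14, adjusted p = 0.0014). The 3 *MxD* values were at the level of *DxD* (7.66) and *DxM* (7.65), so the *MxM* males were those that differed from the rest. ENSMUSG00000021125 measured 3.08, 3.87 and 3.08 in *MxD* and 5.62, 5.85 and 6.32 in *MxM*, a difference of -2.59 (standard error 0.26, adjusted p = 0.0025). The *MxD* values of 3.08 were the lowest of their arrays, so its size also depends in part on that shared value. These 4 genes were chosen for their size and lack of overlap. They were called in each of the 6 fits that left out a male.

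The same held for large differences in general. A genotype is said here to stand apart at a gene when its 3 males lay beyond all 9 other males on the side of the difference. Of the 53 genes called higher by at least 1 log2 unit, *MxM* alone stood apart in 44 and *MxD* alone in 6. Of the 43 genes called lower by at least 1, *MxM* alone stood apart in 26, *MxD* alone in 3 and both in 10. Over all 7000 genes *MxM* alone stood apart in 14.5% and *MxD* alone in 9.66%.

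Among all 416 genes called higher in *MxD*, *MxM* alone stood apart in 207, *MxD* alone in 140, both in 20 and neither in 49. Among the 632 called lower, *MxM* alone stood apart in 309, *MxD* alone in 140, both in 71 and neither in 112. Genes at which the sterile males differed from each of the 9 fertile males were therefore 371 of the 1048, and genes at which the *MxM* males differed from each of the 9 others were 607, with 91 counted under both. Over all 7000 genes these counts were 773 and 1109, with 97 under both. The *MxD* and *MxM* males did not overlap in any of the 1048 called genes, which favours both counts among them. Measured from the mean of *DxD* and *DxM*, the median shift of the genes called higher was 0.18 in *MxD* and -0.37 in *MxM*. For the genes called lower it was -0.20 in *MxD* and 0.36 in *MxM*.

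**Figure D2:**
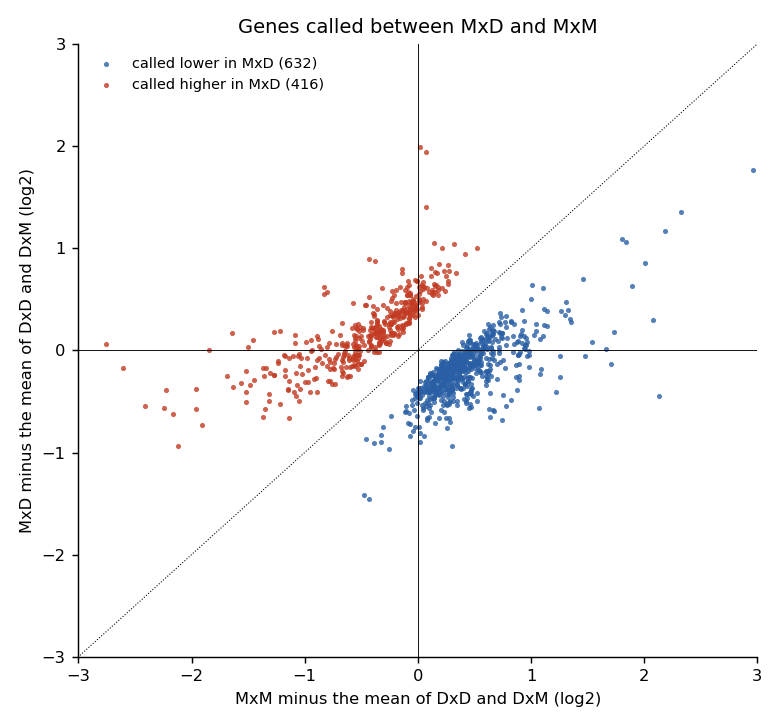
Each point is 1 of the genes called between *MxD* and *MxM*, with the shift of *MxM* (x axis) and of *MxD* (y axis) from the mean of *DxD* and *DxM*, both in log2 units. Points with the largest differences spread along the x axis, which marks a shift of *MxM*, and 2 genes lie outside the axes.

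The study assigns genes to the testis cell population in which they are most induced, from arrays of enriched cells that are independent of these males. The assignment was used here for 1997 genes of chromosomes 1 to 4 and part of chromosome 5, of which 1102 have a class. A class marks the highest induction and not expression in that cell type alone. The classes differed in the direction in which their genes were called. Postmeiotic genes were mostly lower and mitotic genes mostly higher in *MxD*, while the medians of somatic and meiotic genes lay nearer to that of the whole table. The share of somatic genes called higher was nonetheless above that of the whole table.

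Of 269 postmeiotic genes, which are most induced in round spermatids, 61 (22.7%) were called lower and 5 (1.86%) higher in *MxD*. In the whole table these shares are 9.03% and 5.94%. With the block, 87 (32.3%) were called lower and 8 (2.97%) higher, against 14.7% and 11.5% of the whole table. The median difference was -0.22, against -0.0091 over all genes, and 221 of the 269 had the lower mean in *MxD*. Relative to each gene's mean over the 12 males, the class averaged -0.11, -0.18 and -0.22 in the *MxD* males and 0.04, 0.10 and 0.04 in the *MxM* males. All 3 *MxD* males were thus below all 3 *MxM* males. *DxD* and *DxM* averaged 0.07 and 0.04, at the level of *MxM*, so that for this class as a whole the sterile males were the ones set apart. Without 1 male, 16 to 64 genes were called lower and 1 to 6 higher. The lowest counts came without *MxM* replicate 2 (16), *MxD* replicate 3 (17), *MxD* replicate 2 (22) and *MxD* replicate 1 (38), and the class median stayed between -0.27 and -0.20.

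Of 367 mitotic genes, which are most induced in spermatogonia, 56 (15.3%) were called higher and 5 (1.36%) lower in *MxD*, against 5.94% and 9.03% of the whole table. The median difference was 0.19, and 270 genes or 73.6% had the higher mean in *MxD*. The class averaged 0.14, 0.10 and 0.22 in the *MxD* males and -0.10, -0.07 and 0.02 in the *MxM* males. The genotypes did not overlap, and *MxM* replicate 3 lay nearest to the *MxD* males. *DxD* averaged -0.10 and *DxM* averaged -0.0014. With the replicate number as a block, 109 mitotic genes (29.7%) were called higher and 7 (1.91%) lower, against 11.5% and 14.7% of the whole table. Leaving out *MxM* replicate 3 gave 81 higher, and the counts without other males were 43 (*MxM* replicate 1), 11 (*MxM* replicate 2), 24 (*MxD* replicate 1), 18 (*MxD* replicate 2) and 10 (*MxD* replicate 3).

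Of 324 meiotic genes, most induced in spermatocytes, 28 (8.64%) were called lower and 10 (3.09%) higher in *MxD*, against 9.03% and 5.94% of the whole table. The median difference was -0.06. The class averaged -0.07, -0.02 and -0.05 in the *MxD* males and 0.02, -0.01 and -0.07 in the *MxM* males, so the genotypes overlapped. *MxM* alone stood apart at each of the 10 genes called higher, and at 14 (50%) of the 28 called lower. Among all called genes it did so at 49.8% of those higher and 48.9% of those lower, so the share of the 28 was near that of the table. With the block, 18 meiotic genes (5.56%) were called higher and 58 (17.9%) lower, against 11.5% and 14.7% of the whole table, so that the share called lower was below that of the table without the block and above it with the block. Without *MxM* replicate 2 or *MxD* replicate 3, 5 were called higher in either fit, and 4 and 2 lower. Without *MxD* replicate 1 or *MxD* replicate 2, 11 were called lower.

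Of 142 somatic genes, most induced in Sertoli cells, 21 (14.8%) were called higher and 8 (5.63%) lower in *MxD*, against 5.94% and 9.03% of the whole table. The median difference was 0.045, and 53.5% of the genes had the higher mean in *MxD*. The class averaged 0.06, 0.06 and 0.09 in the *MxD* males and -0.05, -0.02 and 0.10 in the *MxM* males, so *MxM* replicate 3 was above all 3 *MxD* males. With the block, 33 somatic genes (23.2%) were called higher and 14 (9.86%) lower, against 11.5% and 14.7% of the whole table. Without *MxM* replicate 3, the numbers were 24 and 6, and the class median was 0.09. Without *MxM* replicate 2 or *MxD* replicate 3, 2 genes were called higher in either fit. The number was 5 without *MxD* replicate 1 or *MxD* replicate 2 and 11 without *MxM* replicate 1.

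**Figure D3:**
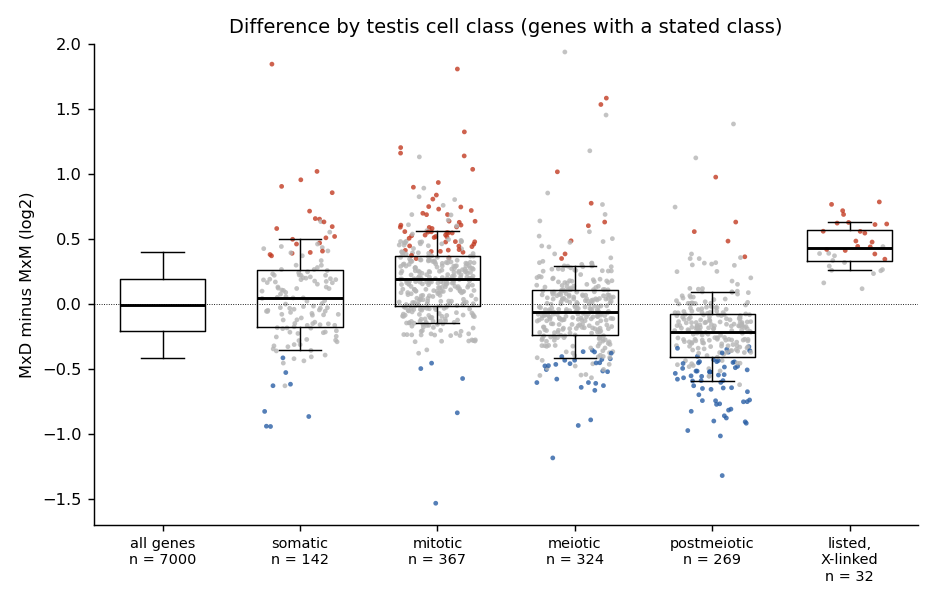
The y axis is the log2 difference *MxD* minus *MxM*, with 1 point per gene for each class, red where called higher and blue where called lower. Boxes give the median and quartiles and whiskers the 10th and 90th percentiles. The median is -0.22 in the postmeiotic and 0.19 in the mitotic class, the 32 listed X-linked genes were chosen by the study on these males, and 2 genes lie outside the axis.

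The 895 genes of these chromosomes without a class had a median difference of -0.013, with 39 called higher and 76 lower. By chromosome, 74 of 415 genes were called on chromosome 1, 92 of 589 on chromosome 2, 55 of 361 on chromosome 3, 56 of 435 on chromosome 4 and 32 of 197 on the part of chromosome 5. These shares ran from 12.9% to 17.8%, around the 15.0% of the table. With the block they ran from 24.6% to 28.7%, around the 26.2% of the table.

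**Figure D4:**
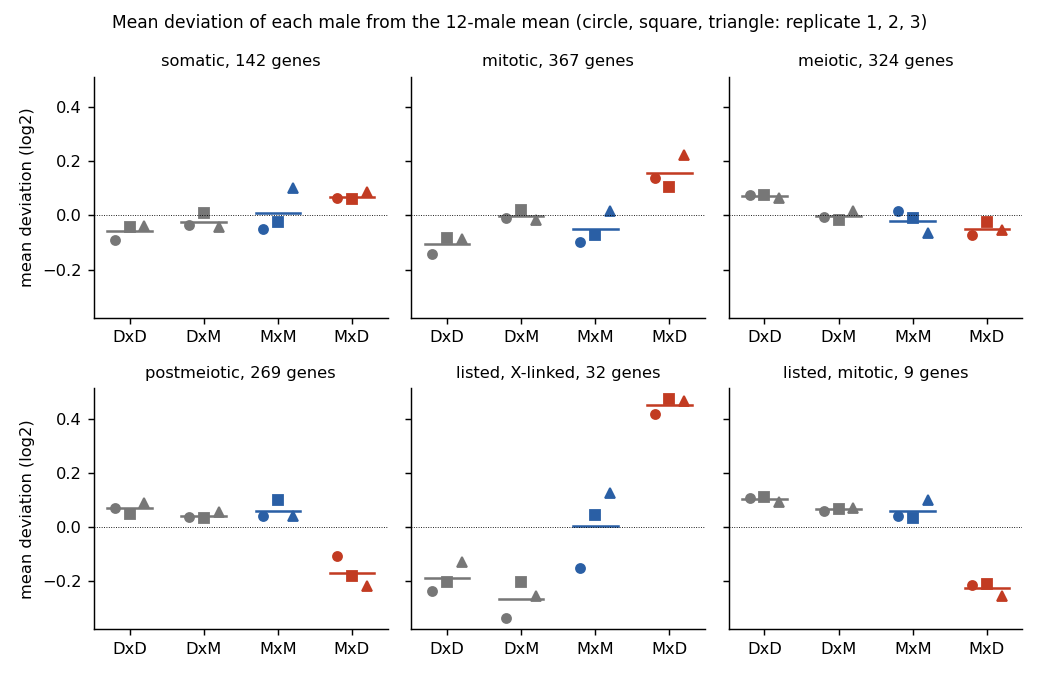
Each point is a male, with the mean over a gene class of its log2 deviation from the mean over the 12 males on the y axis and the genotype on the x axis. Bars are genotype means over 3 males. *MxD* males were lowest for the postmeiotic class and highest for the mitotic class, and *MxM* replicate 3 (triangle) lay above the *MxD* males for the somatic class.

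Gene names were given for 45 genes, which the study listed because they differed between the reciprocal hybrids and between *MxD* and at least one within-species cross, in the direction opposite to that of their cell class. They comprise 36 postmeiotic genes, 32 of them X-linked, that the study lists as higher in sterile males, and 9 mitotic genes, all autosomal, that it lists as lower. Because the list was chosen on these same males, its directions and counts describe the genes and are not independent evidence. Of the 45, 22 (48.9%) were called higher and 1 (2.22%) lower between *MxD* and *MxM*, where 5.94% and 9.03% of all genes were. With the block, 26 (57.8%) were called higher and 5 (11.1%) lower, where 11.5% and 14.7% of all genes were.

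All 32 X-linked genes had the higher mean in *MxD*. Both genotypes carry the PWK/PhJ X chromosome, so that each array measured transcripts of the same X-linked alleles. The 32 differences ran from 0.12 to 0.78, with a mean of 0.45, or 1.36-fold. The genotypes did not overlap in 27 of the 32, where 16.6% of all genes were higher without overlap, and 19 or 59.4% were called, where 15.0% of all genes were called and 5.94% called higher. With the block 23 were called, where 26.2% of all genes were called and 11.5% called higher. Since the study chose the 32 on these males, these shares are given as a description. Averaged over these genes, the deviation from the 12-male mean was 0.42, 0.47 and 0.47 in the *MxD* males and -0.15, 0.04 and 0.13 in the *MxM* males. *MxM* replicate 1 was the lowest *MxM* male in 27 of the 32 genes. In the order of their position along the chromosome, 10 of the first 16 genes and 9 of the last 16 were called.

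Several of the 32 are genes of the forming sperm head. *Cypt3*, which encodes a cysteine-rich protein of the perinuclear theca, measured 11.54, 11.88 and 11.78 in *MxD* and 10.90, 11.17 and 11.27 in *MxM*. Every *MxD* male was above every *MxM* male, and the difference was 0.62 (standard error 0.14, adjusted p = 0.027). Its relative *Cypt5* had a difference of 0.39 (standard error 0.12), which did not pass (adjusted p = 0.067) but passed with the block (adjusted p = 0.029).

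*Cylc1*, encoding cylicin of the sperm head cytoskeleton, measured 8.90, 8.33 and 8.62 in *MxD* and 8.19, 7.96 and 7.88 in *MxM*. The spread among *MxD* males was wide, with an SD of 0.29, and the groups did not overlap. The difference was 0.61 (standard error 0.16, adjusted p = 0.045). *Actrt1*, an actin-related protein of the same structure, differed by 0.26 (standard error 0.14, adjusted p = 0.25), and its males overlapped.

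A pair of cancer/testis antigen genes, expressed in testis and in some tumours, rose in *MxD*. *Ctag2* measured 10.44, 10.49 and 10.23 in *MxD* and 9.76, 9.89 and 10.07 in *MxM*, a difference of 0.48 (standard error 0.12, adjusted p = 0.035). *Fmr1nb* measured 8.46, 8.51 and 8.30 in *MxD* and 7.77, 7.85 and 7.97 in *MxM*, a difference of 0.56 (standard error 0.10, adjusted p = 0.015). For both genes the lowest *MxD* male was above the highest *MxM* male.

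Other X-linked genes of known type rose by under 0.5 or did not pass. *Dmrtc1a*, related to the DMRT transcription factors, differed by 0.48 (adjusted p = 0.018), *Efhc2*, with EF-hand domains, by 0.44 (adjusted p = 0.035), and *Tspan6*, a tetraspanin membrane protein, by 0.41 (adjusted p = 0.024). *Satl1*, similar to acetyltransferases, differed by 0.38 (adjusted p = 0.039), and *Zcchc13*, a zinc knuckle protein, by 0.34 (adjusted p = 0.035). All 5 had no overlap between the genotypes. *Tsga8*, a gene of haploid germ cells, differed by 0.32 and did not pass (adjusted p = 0.073), but passed with the block (adjusted p = 0.040). *Piga*, an enzyme of GPI anchor synthesis, differed by 0.26 (adjusted p = 0.20), *Dusp21*, a dual specificity phosphatase, by 0.39 (adjusted p = 0.15) and *Ribc1* by 0.16 (adjusted p = 0.35). Of these last 3, *Piga* and *Ribc1* overlapped between the genotypes.

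The X-linked genes with the largest differences are known by clone names. 4933400A11Rik measured 9.47, 9.47 and 9.72 in *MxD* and 8.57, 8.79 and 8.95 in *MxM*, a difference of 0.78 (standard error 0.13, adjusted p = 0.011). 1700013H16Rik differed by 0.77 (standard error 0.13, adjusted p = 0.013). 1700025D03Rik measured 9.43, 9.47 and 9.36 in *MxD* and 8.70, 8.80 and 8.69 in *MxM*, with little spread in either group, and differed by 0.69 (standard error 0.09, adjusted p = 0.0051). It was the only X-linked gene of the list called in each of the 6 fits that left out a male. At the other end, 4930468A15Rik measured 7.93, 7.97 and 7.77 in *MxD* and 7.46, 7.88 and 7.98 in *MxM*, which overlap, and its difference of 0.12 did not pass (adjusted p = 0.63). Without *MxM* replicate 1, in which it was lowest, the sign turned, at -0.042.

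The number of these X-linked genes called moved with the males used. It was 11 without *MxM* replicate 1, 3 without *MxM* replicate 2, 19 without *MxM* replicate 3, 8 without *MxD* replicate 1, 4 without *MxD* replicate 2 and 2 without *MxD* replicate 3. The median difference of the 32 genes stayed between 0.36 and 0.49 in these fits. Of the called genes named above, *Ctag2*, *Efhc2*, *Satl1* and *Zcchc13* were called in 1 of the 6 fits, *Cylc1* and *Tspan6* in 2, *Cypt3*, *Fmr1nb* and *Dmrtc1a* in 3, 4933400A11Rik in 4 and 1700013H16Rik in 5.

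Both fertile genotypes with a LEWES/EiJ mother had lower levels of these genes than *MxD*. Their males carry the LEWES/EiJ X chromosome and not the PWK/PhJ one. Here and in the count below over all 9 fertile males, different X-linked alleles are thus compared, except with *MxM*. What the alleles or their probe match contribute was not tested. The mean deviation of the 32 genes was -0.19 in *DxD* and -0.27 in *DxM*. *MxM* lay above *DxD* in 26 of the 32, by a mean of 0.20 over the 32 genes. *MxD* stood apart, above all 9 fertile males, in 27 genes, among them the 19 called, and *MxM* stood apart in 0. Over all 7000 genes *MxD* stood apart in 773 and *MxM* in 1109. The list holds genes whose sterile average exceeded that of every fertile genotype, which favours the count of 27 and the lower fertile levels. In the other pair with a shared mother, *DxM* minus *DxD* ranged from -0.50 to 0.25 over the 32 genes with a mean of -0.08. Of the genes, 22 were lower in *DxM*. The study listed only genes that differed between *MxD* and *DxM*, here with *MxD* higher, which favours genes measured low in *DxM*. These values are therefore a description too. The differences *MxD* minus *MxM* and *DxM* minus *DxD* rest on different arrays and change the species of the father in opposite directions. Whether they differ was not tested.

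Of the 4 autosomal postmeiotic genes of the list, 3 were called higher in *MxD*, where 5.94% of all genes were. With the block 3 were called too, where 11.5% of all genes were called higher. *Cyp17a1* of chromosome 19, which the study places in the postmeiotic class and which is known as a Leydig cell enzyme of androgen synthesis, measured 11.23, 11.17 and 11.29 in *MxD* and 9.69, 9.54 and 10.69 in *MxM*. The *MxD* males were tightly grouped, and *MxM* replicate 3 was about 1 log2 unit above the other *MxM* males. The difference was 1.26, or 2.39-fold (standard error 0.28, adjusted p = 0.027). Without *MxM* replicate 3 the difference was 1.62 (adjusted p = 0.00048), and in the other 5 fits that left out a male it was 1.04 to 1.29 and was not called (adjusted p = 0.053 to 0.11). *Cyp17a1* was also not called by limma with a trend and robust prior (adjusted p = 0.060). The t-test did not call it with equal (adjusted p = 0.13) or unequal variances (adjusted p = 0.24). Of 16 alternative fits in all, 8 called it.

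*Spinlw1* of chromosome 2, which encodes eppin, a protease inhibitor on the sperm surface, measured 9.46, 9.33 and 9.49 in *MxD* and 8.82, 8.79 and 9.003 in *MxM*. The groups did not overlap, and the difference was 0.56 (standard error 0.10, adjusted p = 0.015). BC048507 of chromosome 13 measured 10.94, 11.05 and 10.91 in *MxD* and 10.40, 10.56 and 10.68 in *MxM*, a difference of 0.42 (standard error 0.10, adjusted p = 0.038). *Spinlw1* was not called without *MxM* replicate 2 (adjusted p = 0.070) or *MxD* replicate 3 (adjusted p = 0.069). BC048507 was called without *MxM* replicate 3 (adjusted p = 0.024) and in none of the other 5 fits that left out a male (adjusted p = 0.074 to 0.12). *Aqp8* of chromosome 7, a water channel, differed by 0.19 (standard error 0.10) and did not pass (adjusted p = 0.22), with its lowest *MxD* male at 8.19 and its highest *MxM* male at 8.18.

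All 9 mitotic genes of the list had the lower mean in *MxD*, and 1 of them was called, where 9.03% of all genes were called lower. With the block 5 were called lower, where 14.7% of all genes were. A fit that also used the *DxD* and *DxM* arrays called 7 of the 9 lower, and 1211 of the 7000 genes. Fits without 1 male called 0 or 1 of the 9. *Usp48* of chromosome 4, a deubiquitinating enzyme, measured 7.49, 7.52 and 7.56 in *MxD* and 7.90, 8.03 and 8.01 in *MxM*. It fell by 0.46 (standard error 0.09, adjusted p = 0.017), and every *MxD* male was below every *MxM* male. It was not called without *MxM* replicate 2 (adjusted p = 0.083) or when an *MxD* male was left out (adjusted p = 0.055 to 0.065), where it ran from -0.48 to -0.43.

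*Dnmt3a* of chromosome 12, which methylates DNA de novo in germ cells, measured 5.08, 4.96 and 5.06 in *MxD* and 5.40, 5.30 and 5.32 in *MxM*. The groups did not overlap, but the difference of -0.30 (standard error 0.09) did not pass (adjusted p = 0.057), while it passed with the block (adjusted p = 0.034). *Brwd1* of chromosome 16, a bromodomain and WD repeat protein, measured 6.23, 6.28 and 6.24 in *MxD* and 6.53, 6.50 and 6.60 in *MxM*. Its difference of -0.29 (standard error 0.08) likewise had an adjusted p of 0.055 without and 0.041 with the block.

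*Nup155* of chromosome 15, a protein of the nuclear pore, differed by -0.33 (adjusted p = 0.077, and 0.028 with the block). *Sirpa* of chromosome 2, the receptor of CD47, differed by -0.28 (adjusted p = 0.12, and 0.046 with the block). *Ppp1r15b* of chromosome 1, which directs a phosphatase to the translation factor eIF2 alpha, differed by -0.35 (adjusted p = 0.059). These 3 genes did not overlap between the genotypes, and *Ppp1r15b* did not pass with the block either (adjusted p = 0.058). *Meg3* of chromosome 12, an imprinted RNA expressed from the maternal copy, which is of PWK/PhJ in both genotypes, measured 5.49, 5.48 and 5.34 in *MxD* and 5.80, 5.58 and 5.81 in *MxM*. Its difference of -0.29 did not pass (adjusted p = 0.097).

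*Baz2b* of chromosome 2, a bromodomain protein, and *Mthfd1* of chromosome 12, an enzyme of folate metabolism, differed least, by -0.15 (adjusted p = 0.34) and -0.10 (adjusted p = 0.47). Both overlapped between the genotypes. Over the 9 genes, the mean deviation was -0.21, -0.21 and -0.26 in the *MxD* males and 0.04, 0.03 and 0.10 in the *MxM* males, with *DxD* at 0.10 and *DxM* at 0.07. *MxD* stood apart, below all 9 fertile males, in 7 of the 9 genes, the exceptions being *Baz2b* and *Mthfd1*. The study listed these 9 for a sterile average under that of every fertile genotype, which favours this count.

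**Figure D5:**
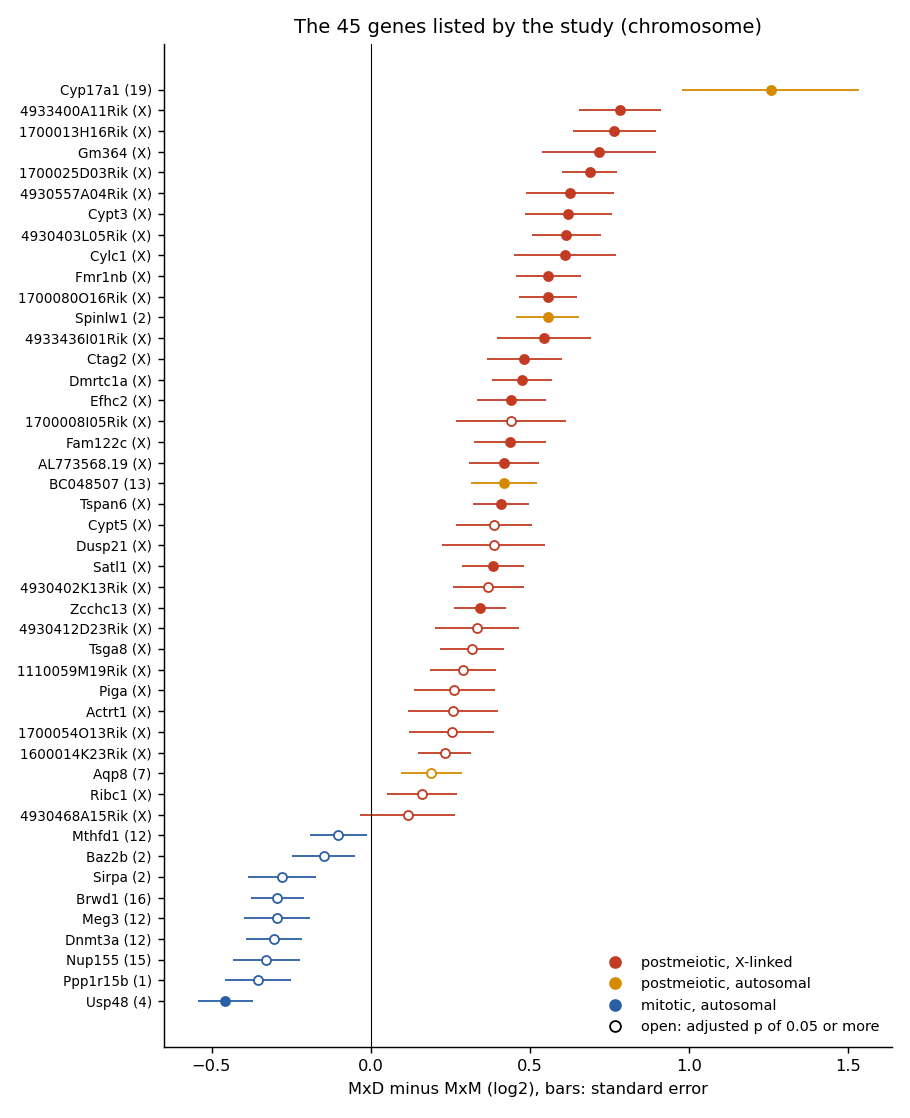
The x axis is the log2 difference *MxD* minus *MxM* of the 45 genes the study listed, with standard error bars, and the y axis gives the gene and its chromosome. Filled points passed an adjusted p of 0.05 (22 higher, 1 lower), open points did not, and all 32 X-linked genes lie above 0.

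The other pair with a shared mother gives a second view of the called genes. *DxM* and *DxD* had a LEWES/EiJ mother and differed in the father (PWK/PhJ or WSB/EiJ), and none of their arrays enters the contrast of *MxD* and *MxM*. The pairs are not parallel in the paternal autosomes. *MxD* has *M. domesticus* ones where *MxM* has *M. musculus* ones, and *DxM* has *M. musculus* ones where *DxD* has *M. domesticus* ones. A difference between the species would thus enter the pairs with opposite signs, and it was not separated here from a difference between hybrids and within-species crosses. For the 416 genes called higher in *MxD*, *DxM* minus *DxD* had a median of -0.03, and *DxM* was the higher in 45.4%, against 50.6% of all genes. For the 632 called lower, the median was -0.0015, and *DxM* was the lower in 50.5%, against 49.4% of all genes. Of the 53 genes called higher by at least 1, *DxM* was below *DxD* in 45, with a median of -0.39. Of the 43 called lower by at least 1, *DxM* was above *DxD* in 24 and below it in 19, with a median of 0.14. Over all genes the correlation of *MxD* minus *MxM* with *DxM* minus *DxD* was -0.12 (Pearson) and -0.03 (Spearman). It is a description across genes, which share arrays and cell composition and are not independent replicates.

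The cell classes also differ between these fertile genotypes. The median of *DxM* minus *DxD* was 0.00089 in the postmeiotic class, where that of *MxD* minus *MxM* was -0.22. In the mitotic class it was 0.09, beside 0.19, and 70.8% of the mitotic genes were higher in *DxM* than in *DxD*. In the meiotic class it was -0.06, the same as between *MxD* and *MxM*, and in the somatic class 0.027, beside 0.045. The somatic, mitotic and meiotic medians thus had the same sign in both pairs, and the postmeiotic median was away from 0 in the pair with the sterile hybrid. The pairs change the species of the father in opposite directions, and whether they differ was not tested.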

How the data were processed

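RNA from whole testis of 12 males was hybridised to Affymetrix Mouse Genome 430 2.0 arrays. According to the methods, probes were grouped by Ensembl gene with BRAINARRAY files and summarised with PLIER, genes not detected in every male were dropped, and arrays were quantile normalized. The analysis started from the log2 values that the authors deposited. There is no read depth, and precision is limited by the number of arrays.

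*MxD* and *MxM* were compared with limma 3.58.1 in R 4.3.3 on their 6 arrays, two-sided and without covariates. The alternatives were a fit of all 4 genotypes, the methods' t-test, the replicate number as a block, other priors, weights, filters and scalings, and each male left out. Figures used matplotlib 3.10.9 and Python 3.11.15.

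Deviations of same-numbered *MxD* and *MxM* males correlated over genes at 0.638, 0.151 and 0.234, each above the 0.1 taken here as a sign of pairing. *MxD* replicate 2 correlated more with *MxM* replicate 3 (0.300) than with its own number. The tests are those without the block. Blocked counts are given beside those of the whole table, the classes and the listed genes. Blocked p-values are given for named genes whose call they change. The labels do not say what the numbers mark.

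The 6 arrays, genes and lists were chosen with earlier results of these data known. Cell classes, chromosomes and names come from the study's gene tables, used for 1997 and 45 genes. Of 23 gene lists by symbol, 872 symbols in all, only 21 symbols in 4 lists matched a name. These were 16 X-linked spermatid genes (10 called higher, where 5.94% of all genes were), *Dnmt3a*, *Brwd1* and *Baz2b* of the chromatin list, *Cyp17a1* of the Leydig list and *Meg3* of the imprinted list. A symbol could match only one of the 45 genes, which the study chose on these same males. The count of 10 is therefore a description. The other 19 lists, including the remaining cell type markers, had no match. Named genes are taken from the 45 genes, together with the 2 highest and 2 lowest called differences without overlap. The counts of genotypes that stand apart and the values of *DxM* minus *DxD* were added after the data were seen.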

Additional observations from a re-analysis of the deposited data

How the results depend on the processing

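The direction of the imbalance held in every fit, with more genes called lower than higher in *MxD*, while the number called did not. The fit of all 4 genotypes, which borrows the narrower spread of *DxD* and *DxM*, gave 2122 genes (911 higher, 1211 lower), and included 1047 of the 1048. The replicate block gave 1836 (804 higher, 1032 lower), and array weights, for which *MxM* replicate 2 had a weight of 15.2 against 0.312 to 1.21 in the other arrays, gave 3041 (1487 higher, 1554 lower). The methods' t-test, with equal variances, gave 2001 genes at the unadjusted p under 0.05 that the methods use (828 higher, 1173 lower) and 420 after adjustment (152 higher, 268 lower). A form with unequal variances gave 1686 (676 higher, 1010 lower) and 3 (1 higher, 2 lower), and limma at an unadjusted p under 0.05 gave 2244 (969 higher, 1275 lower). Leaving out each male in turn gave 243 to 1164 genes, with 81 to 572 higher and 162 to 592 lower. The trend and robust prior, the filter on dim genes, repeated quantile normalization, centring on the autosomal median and removal of the genes far lower in *MxM* replicate 3 stayed within 1.5 times the count. Over the 49 named genes and these alternatives, 1 value changed sign, that of 4930468A15Rik, which ran from -0.042 (without *MxM* replicate 1) to 0.218 as males were left out, 128 were no longer called and 42 became called. The causes were not tested, except that a fit without a male has fewer samples. Beside the genes given with the block above, the block brought 4930402K13Rik (adjusted p = 0.023) and 1700008I05Rik (adjusted p = 0.022) past the threshold, and it changed no other call of the 49 genes.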
